A study of Homo sapiens with 6 samples.

Results

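The 10 genes described here form the oxygen-sensing pathway around the hypoxia-inducible factors (HIFs): the factor genes HIF1A and EPAS1, the hydroxylase genes EGLN1, EGLN2, EGLN3 and HIF1AN, the ubiquitin ligase gene VHL, and the HIF target genes VEGFA, NDRG1 and ADM. They were taken by symbol from a deposited table of 20503 genes, in which all 10 were found, and all 10 passed the filter on low counts. The table holds read counts of poly(A)-selected RNA in 6 libraries. T47D-TR, with 3 libraries, is a tamoxifen-resistant subline grown with 1 µM 4-hydroxytamoxifen, the active metabolite of tamoxifen. T47D, with the other 3, is the breast cancer line it was derived from, and both were kept in DMEM with fetal bovine serum. Resistance and the presence of the drug coincide in this design and cannot be told apart, and separate cultures are not stated in the labels for libraries of one group. The p-values therefore cover the spread between libraries, which may be technical. No oxygen level is given in the labels.

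In cells with enough oxygen, the prolyl hydroxylases encoded by the EGLN genes mark the HIF alpha subunits, VHL binds the marked proteins, and they are degraded. The enzyme encoded by HIF1AN, known as factor inhibiting HIF, modifies an asparagine and blocks coactivator binding. When oxygen falls these steps slow, HIF alpha pairs with ARNT and target genes such as VEGFA are transcribed. Most of this control acts on protein, which RNA counts do not measure. EGLN3, and to a lesser degree EGLN1, are themselves known HIF targets.

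In T47D-TR, 8 of the 10 genes were higher and 2 were lower than in T47D by edgeR's quasi-likelihood test at an adjusted p under 0.05. NDRG1 differed most, by 7.37-fold, followed by EGLN3 at 3.42-fold, VEGFA at 2.33-fold, EPAS1 at 2.09-fold and HIF1A and ADM at 1.89-fold each. VHL and EGLN1 were higher by smaller amounts. HIF1AN and EGLN2 were slightly lower, and the EGLN2 call did not hold in most other settings. This test called 63.0% of all 15961 tested genes, 32.5% as higher and 30.5% as lower, so a call by itself sets none of these genes apart. The CPM of the groups did not overlap for any of the 10 genes, nor for 68.3% of tested genes. The median log2 fold change of the 10 was 0.92, against 0.00 over all tested genes. Of the 10, 4 were called at least 2-fold higher, a call made for 10.1% of tested genes.

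The T47D-TR libraries held 17199315 to 19867230 counts and the T47D libraries 18315735 to 19305594, so that 3 counts correspond to 0.151 to 0.174 CPM, the unit used here for counts scaled to library size. Each of the 10 genes had at least 132 counts in every library. ESR1, the oestrogen receptor gene, had 2, 4 and 3 counts in T47D-TR and 3, 0 and 2 in T47D, although the labels call the line ER-positive. Of 7 tested luminal epithelial markers 5 rose and 2 fell, beside 32.5% and 30.5% of all tested genes. PGR, the progesterone receptor gene, was not among the rows of the table. The keratin gene KRT8 had 24419 to 32914 counts in T47D-TR and 24287 to 26486 in T47D, and KRT19 had 2236, 2169 and 1841 against 531, 557 and 493. EPCAM, an epithelial adhesion gene, was lower, with 305, 316 and 204 counts in T47D-TR and 727, 743 and 724 in T47D. GATA3, a luminal transcription factor gene, had only 11, 14 and 10 counts in T47D-TR and 21, 23 and 26 in T47D. CDH1, another epithelial adhesion gene, had 97, 159 and 57 counts in T47D-TR and 37, 57 and 27 in T47D. FOXA1, another luminal factor gene, was at 10.7 ± 1.05 CPM in T47D-TR and 5.64 ± 0.50 CPM in T47D. The identity of the cultures was not tested. Of 8 endothelial markers 3 were in the table, and their summed level was 26.0 to 32.7 CPM in T47D-TR and 2.24 to 3.37 CPM in T47D. PECAM1 supplied most of it in T47D-TR, with 453, 610 and 459 counts, while VWF had 1, 0 and 4. The 7 fibroblast markers in the table summed to 20.1 to 26.3 CPM in T47D-TR and 37.1 to 40.3 CPM in T47D, and the 5 leukocyte markers to 62.2 to 78.5 CPM and 27.3 to 31.4 CPM, mostly from CD68. The lower fibroblast sum came mainly from LUM, with 6, 3 and 5 counts in T47D-TR and 269, 232 and 286 in T47D, while COL1A1, the most abundant of these markers, was not called (edgeR adjusted p = 0.55). Whether other cells contribute to the results below was not tested, and in bulk RNA fewer cells of a type cannot be told apart from less RNA per cell. T47D-TR replicate 3 differed most within its group: its mean chi-square over genes was 8.36 against replicate 1 and 9.58 against replicate 2, a pair that gave 2.79. It also held 22, 37 and 19 counts of the fibroblast genes COL1A2, COL3A1 and DCN, which had at most 4 counts in any other library.

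HIF1A encodes the widely expressed alpha subunit that forms HIF-1 (chromosome 14, 61695513 to 61748259, plus strand, GRCh38). Its counts were 10696, 11337 and 8583 in T47D-TR and 5306, 5675 and 5466 in T47D, every T47D-TR library well above every T47D library. The level was 547 ± 35.5 CPM in T47D-TR and 289.6 ± 3.65 CPM in T47D (SD, n = 3 each), a log2 fold change of 0.92 ± 0.06 (SE; edgeR adjusted p = 9.4e-09). EPAS1 encodes the alpha subunit of HIF-2, first described in endothelial cells (chromosome 2, 46293667 to 46386703, plus strand). Its counts were 4737, 4994 and 3724 in T47D-TR and 2212, 2234 and 2094 in T47D. The groups again did not overlap, at 240.25 ± 17.7 CPM in T47D-TR and 115 ± 3.54 CPM in T47D (log2 fold change 1.06 ± 0.07, edgeR adjusted p = 9.9e-09). Both factor genes thus rose by a similar amount.

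The balance between the factor genes moved little. The log2 ratio of EPAS1 to HIF1A in CPM was -1.19 ± 0.02 in T47D-TR and -1.33 ± 0.06 in T47D (SD, n = 3 each), a difference of 0.14 ± 0.04. All 3 T47D-TR values lay above all 3 T47D values (exact permutation test, 2-sided, p = 0.1, which is the smallest that 3 against 3 libraries allow; 0.1 also after adjustment over 4 such ratios). Per kilobase of exon, taken as the union of GENCODE release 29 exons, HIF1A was above EPAS1 in both groups, at 106 ± 6.90 and 32.9 ± 2.42 CPM per kb in T47D-TR and 56.2 ± 0.71 and 15.8 ± 0.48 CPM per kb in T47D. The same order held with the length of the principal transcript of each gene.

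**Figure D1:**
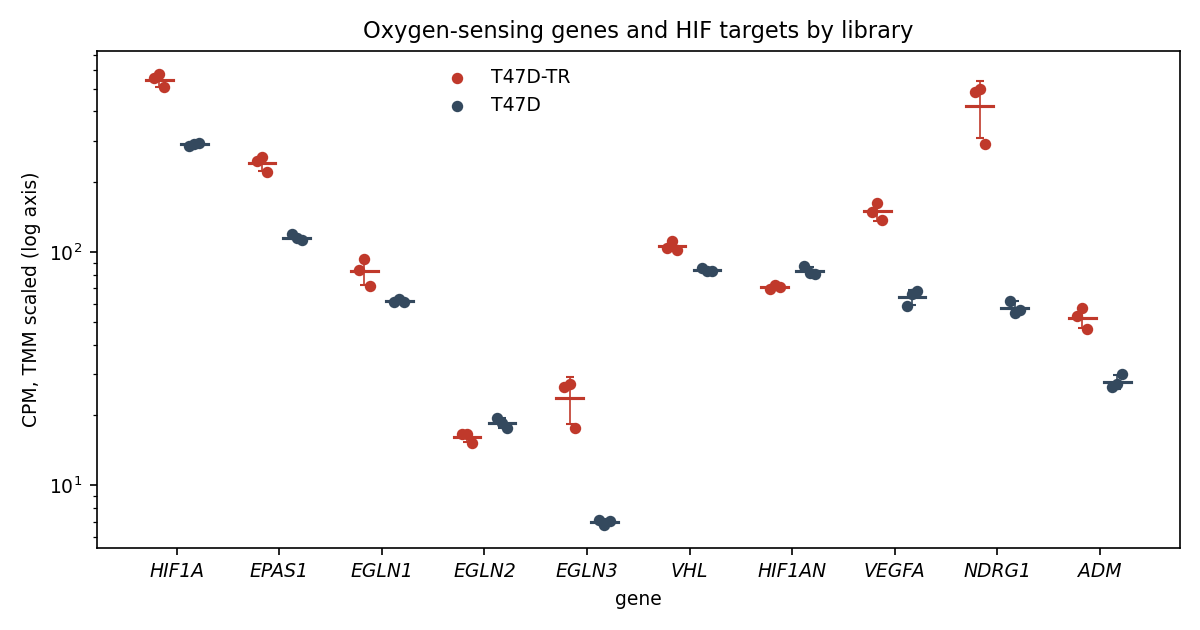
Level of the 10 genes in each library, as TMM-scaled CPM on a log axis. Points are libraries, with T47D-TR in red and T47D in dark blue, horizontal lines are group means and error bars are the SD over 3 libraries. The groups do not overlap for any gene, and the spread in T47D-TR is widest for NDRG1 and EGLN3, where replicate 3 is lowest.

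Antisense transcripts overlap both ends of HIF1A. HIF1A-AS2, which lies across its 3′ end (chromosome 14, 61747039 to 61749089, GRCh38.p14), had 1553, 1777 and 1237 counts in T47D-TR and 818, 917 and 843 in T47D. Its log2 fold change of 0.85 ± 0.09 (edgeR adjusted p = 6.7e-07) was close to that of HIF1A. HIF1A-AS1, at the 5′ end, had 108, 160 and 121 counts in T47D-TR and 91, 91 and 92 in T47D (log2 fold change 0.53 ± 0.16, edgeR adjusted p = 0.0086). The libraries were made with a directional kit, but no source used here states the strand setting of the counting. Reads of HIF1A and of its antisense partners may therefore be mixed.

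The bases before the transcription starts of HIF1A and EPAS1 are shown because both genes rose together. They are the 250 upstream bases of RefSeq promoter windows (GRCh38.p14), for HIF1A chr14:61695263-61695512 and for EPAS1 chr2:46297157-46297406, both on the plus strand. Capitals mark matches on either strand to ACGTG or GCGTG, the cores of the hypoxia response element that HIF binds.
HIF1A: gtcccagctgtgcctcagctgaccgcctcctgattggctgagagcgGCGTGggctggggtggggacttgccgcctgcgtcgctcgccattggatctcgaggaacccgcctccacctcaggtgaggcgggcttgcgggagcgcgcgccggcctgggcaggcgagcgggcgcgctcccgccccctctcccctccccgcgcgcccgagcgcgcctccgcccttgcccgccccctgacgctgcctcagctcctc
EPAS1: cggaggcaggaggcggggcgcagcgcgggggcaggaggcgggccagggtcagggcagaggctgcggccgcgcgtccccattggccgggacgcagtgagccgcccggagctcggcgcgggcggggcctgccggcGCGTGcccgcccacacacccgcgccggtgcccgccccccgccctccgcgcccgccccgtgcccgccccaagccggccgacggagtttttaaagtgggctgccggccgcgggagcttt
Each of these windows held 1 match, to GCGTG. RefSeq windows of 300 bases, which add the first 50 transcribed bases, were found for 7 of the 10 genes, and 5 of these held at least 1 match in at least one window. HIF1A and EGLN2 each had a second window, without a match, and the windows of EGLN3 and HIF1AN held none. Of all 35116 RefSeq promoter windows 48.4% held a match, as did 60.0% of the 15206 windows of tested genes, so such matches are common. A match describes the letters only and is not a site of binding. The upstream bases shown for EPAS1, EGLN1 and ADM lie inside the GENCODE gene positions printed here, and those of EGLN2 partly so. The sources thus place the start of these genes differently, and which start these cells use was not tested.

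Among the partner genes of the factors, ARNT, which encodes the shared beta subunit of HIF-1 and HIF-2, had 1070, 1023 and 1000 counts in T47D-TR and 814, 845 and 835 in T47D. This was a log2 fold change of 0.34 ± 0.05 (edgeR adjusted p = 0.00032), smaller than that of either alpha subunit gene. Its paralogue ARNT2 had 50, 47 and 18 counts in T47D-TR and was near the limit of detection in T47D, with 1, 5 and 2 counts (13.9-fold, edgeR adjusted p = 3.3e-05). Of 12 tested partners and coactivators of HIF alpha, 7 rose and 3 fell, where 32.5% of all tested genes were called higher and 30.5% lower. The median log2 fold change of the 12 was 0.14, against 0.00 over all tested genes. The coactivator gene NCOA3 was at 139 ± 8.86 CPM in T47D-TR and 88.5 ± 2.48 CPM in T47D, while CREBBP, which encodes the HIF coactivator CBP, was at 117 ± 9.03 CPM and 162 ± 7.15 CPM. RUVBL2 and NCOA2 were lower in T47D-TR as well, with log2 fold changes of -0.34 and -0.20. CITED2, a HIF-induced gene whose product competes with HIF for coactivators, was called higher (log2 fold change 0.57 ± 0.28, edgeR adjusted p = 0.0091), but its groups overlapped, with 2155, 2475 and 1129 counts in T47D-TR and 1223, 1398 and 1289 in T47D. DESeq2 called 4 of the 12 higher.

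Among the prolyl hydroxylase genes, EGLN3 rose most, EGLN1 rose less and EGLN2 did not rise. EGLN3 encodes the hydroxylase PHD3 (chromosome 14, 33924231 to 34462774, minus strand). It had 511, 535 and 297 counts in T47D-TR and 132 in each T47D library, and even the lowest T47D-TR library stood well clear of them. The level was 23.8 ± 5.38 CPM in T47D-TR and 6.98 ± 0.20 CPM in T47D (log2 fold change 1.77 ± 0.20, edgeR adjusted p = 6.7e-07). EGLN1 encodes PHD2, known as the main oxygen sensor in most cells (chromosome 1, 231363751 to 231425044, minus strand). It had 1618, 1828 and 1209 counts in T47D-TR and 1136, 1228 and 1140 in T47D, or 82.9 ± 10.8 CPM and 61.7 ± 0.97 CPM (log2 fold change 0.43 ± 0.11, edgeR adjusted p = 0.00044). The lowest T47D-TR library, replicate 3 at 71.6 CPM, lay close to the highest T47D library at 62.8 CPM.

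EGLN2 encodes PHD1 (chromosome 19, 40798996 to 40808433, plus strand). It had 320, 325 and 257 counts in T47D-TR and 362, 361 and 330 in T47D, a log2 fold change of -0.20 ± 0.06 (edgeR adjusted p = 0.046). This call is at the edge of the threshold: it ended in 10 of 13 other settings, in DESeq2 (adjusted p = 0.147) and whenever any 1 library was left out. Counts of the readthrough gene RAB4B-EGLN2, which shares exons with EGLN2, were 320, 333 and 264 in T47D-TR and 356, 357 and 324 in T47D. They nearly equal those of EGLN2, so how reads were divided between the pair is uncertain.

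The EGLN genes therefore changed unequally relative to each other. The log2 ratio of EGLN3 to EGLN2 was 0.53 ± 0.28 in T47D-TR and -1.40 ± 0.08 in T47D, a difference of 1.93 ± 0.17. That of EGLN3 to EGLN1 was -1.82 ± 0.18 in T47D-TR and -3.13 ± 0.06 in T47D, and that of EGLN1 to EGLN2 was 2.35 ± 0.13 and 1.73 ± 0.07. None of these ratios overlapped between groups (exact permutation test, 2-sided, p = 0.1 for each, the smallest possible, and 0.1 after adjustment over the 4 ratios). Per kilobase of exon union, EGLN3 made up 20.4%, 19.5% and 16.4% of the summed EGLN level in T47D-TR, against 7.82%, 7.42% and 7.97% in T47D. EGLN2 made up 14.3%, 13.2% and 15.9% in T47D-TR and 24.0%, 22.7% and 22.3% in T47D. EGLN1 remained above the other two in every library. With the length of the principal transcripts the EGLN3 shares were 29.5% to 35.6% in T47D-TR and 13.9% to 14.9% in T47D. The shares thus depend on the length used. EGLN3 was above EGLN2 in T47D-TR and below it in T47D with either length. This order, the ratios to EGLN2 and all the shares rest on the counts assigned to EGLN2 alone. RAB4B-EGLN2 was at 16.4 ± 0.69 CPM in T47D-TR and 18.3 ± 0.90 CPM in T47D. How reads were divided between it and EGLN2 is uncertain, so the order in T47D-TR is uncertain too.

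**Figure D2:**
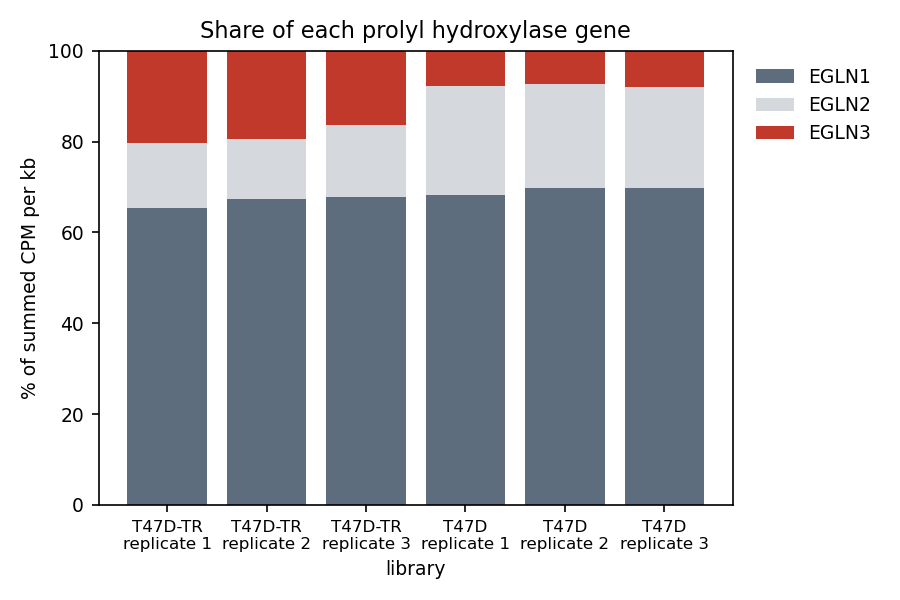
Share of EGLN1, EGLN2 and EGLN3 in their summed level, in percent of CPM per kb of exon union, for each library, with T47D-TR on the left. Bars start at 0 and stack to 100. The EGLN3 share is 16.4% to 20.4% in T47D-TR and 7.42% to 7.97% in T47D. EGLN2 is shown without RAB4B-EGLN2, and how reads were divided between them is uncertain.

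The upstream bases of EGLN1 and EGLN2 are shown because, of the 7 genes with RefSeq windows, only these held ACGTG, and they moved differently. They are chr1:231422288-231422537 on the minus strand for EGLN1 and chr19:40798941-40799190 on the plus strand for EGLN2, from the same RefSeq table, with capitals marking the same matches.
EGLN1: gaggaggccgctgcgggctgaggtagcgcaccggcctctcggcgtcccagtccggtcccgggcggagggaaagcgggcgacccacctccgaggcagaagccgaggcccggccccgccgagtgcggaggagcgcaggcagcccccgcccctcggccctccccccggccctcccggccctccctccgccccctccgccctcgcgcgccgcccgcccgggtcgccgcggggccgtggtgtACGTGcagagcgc
EGLN2: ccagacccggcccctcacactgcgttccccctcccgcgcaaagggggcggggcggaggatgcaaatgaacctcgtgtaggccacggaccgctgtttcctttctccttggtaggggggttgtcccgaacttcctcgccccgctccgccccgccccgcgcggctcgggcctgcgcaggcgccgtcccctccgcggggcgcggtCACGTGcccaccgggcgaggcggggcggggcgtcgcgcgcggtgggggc
EGLN1 had ACGTG on its own strand, starting 13 bases before the transcription start. In EGLN2 the capitals spell CACGTG, in which ACGTG reads on both strands and the matches overlap. ACGTG occurs in 24.9% of the windows of tested genes.

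VHL encodes the von Hippel-Lindau protein, the substrate-binding part of the ligase that marks hydroxylated HIF alpha for degradation (chromosome 3, 10141008 to 10152220, plus strand). It had 2016, 2175 and 1718 counts in T47D-TR and 1579, 1615 and 1541 in T47D. This gave 106 ± 4.70 CPM and 83.4 ± 1.40 CPM, a log2 fold change of 0.34 ± 0.04 (edgeR adjusted p = 6.2e-05). The groups did not overlap, but the size of the change was below the median absolute change of 0.36 over all tested genes. HIF1AN (chromosome 10, 100529072 to 100559998, plus strand) had 1341, 1419 and 1199 counts in T47D-TR and 1617, 1588 and 1500 in T47D. Its level of 71.0 ± 1.42 CPM in T47D-TR lay below the 82.9 ± 3.64 CPM in T47D (log2 fold change -0.22 ± 0.04, edgeR adjusted p = 0.0021). The change of HIF1AN was also smaller in size than the median absolute change of 0.36. Its call as lower held in each of 13 other settings, with log2 fold changes of -0.26 to -0.19. It overlaps the respiratory chain gene NDUFB8 on the other strand over 325 exonic bases, 2.3% of its exon union, and NDUFB8 had a log2 fold change of -0.37.

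Of 16 tested genes of the VHL ligase complex and of HIF alpha turnover, 8 rose (50%) and 6 fell (37.5%). The shares of all tested genes were 32.5% and 30.5%, and whether the group differs from them was not tested. The group had a median log2 fold change of 0.05 (-0.01 with voom), and none of its genes changed by 2-fold. The ligase scaffold gene CUL2 rose (log2 fold change 0.22 ± 0.07, edgeR adjusted p = 0.0069) and RBX1, its RING partner, fell (-0.46 ± 0.10, edgeR adjusted p = 0.00045). The elongin genes ELOB and ELOC, which link VHL to the scaffold, had log2 fold changes of -0.10 and -0.06 and were not called. The deubiquitinase gene USP20 was at 25.7 ± 1.32 CPM in T47D-TR and 16.9 ± 1.58 CPM in T47D. The chaperone genes HSP90AA1 and HSP90AB1, whose products stabilise HIF-1 alpha, were at 2608 ± 121 and 2190 ± 93.7 CPM in T47D-TR against 4159 ± 88.6 and 3572 ± 12.2 CPM in T47D. The number of risers in this group fell to 5 with DESeq2 and with voom, and to 4 or 5 when any 1 of the T47D libraries was left out, 4 without replicate 2.

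The target genes VEGFA, NDRG1 and ADM all rose. VEGFA encodes the main angiogenic growth factor (chromosome 6, 43770184 to 43786487, plus strand). It had 2867, 3185 and 2308 counts in T47D-TR and 1093, 1287 and 1268 in T47D, with no overlap. The level was 149 ± 12.9 CPM in T47D-TR and 64.2 ± 4.76 CPM in T47D (log2 fold change 1.22 ± 0.10, edgeR adjusted p = 2.1e-08).

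ADM encodes adrenomedullin, a secreted vasodilator peptide (chromosome 11, 10304680 to 10307397, plus strand). It had 1023, 1123 and 789 counts in T47D-TR and 488, 530 and 559 in T47D. The level was 52.3 ± 5.31 CPM in T47D-TR and 27.8 ± 1.93 CPM in T47D, a log2 fold change of 0.92 ± 0.10 (edgeR adjusted p = 9e-07). Its 250 upstream bases, chr11:10304823-10305072 on the plus strand, are shown as those of a target gene that rose with the factors, with the same marking.
ADM: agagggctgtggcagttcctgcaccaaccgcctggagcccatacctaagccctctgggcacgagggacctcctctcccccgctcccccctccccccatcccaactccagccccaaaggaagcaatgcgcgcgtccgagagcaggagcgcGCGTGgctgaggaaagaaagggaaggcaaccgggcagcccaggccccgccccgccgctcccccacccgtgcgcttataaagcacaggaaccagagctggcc
The window held 1 match, to GCGTG, starting 101 bases before the transcription start. VEGFA, NDRG1 and VHL had no entry among the RefSeq windows.

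NDRG1 encodes a stress-responsive cytoplasmic protein induced by hypoxia and by iron chelation (chromosome 8, 133237171 to 133302022, minus strand). It had 9307, 9776 and 4908 counts in T47D-TR and 1149, 1070 and 1049 in T47D. Replicate 3 held far fewer than the other T47D-TR libraries, yet still over 4 times the highest T47D library. NDRG1 was at 424 ± 116 CPM in T47D-TR and 57.6 ± 3.77 CPM in T47D (log2 fold change 2.88 ± 0.26, edgeR adjusted p = 1.7e-08), above 98.0% of tested genes in the size of its change.

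**Figure D3:**
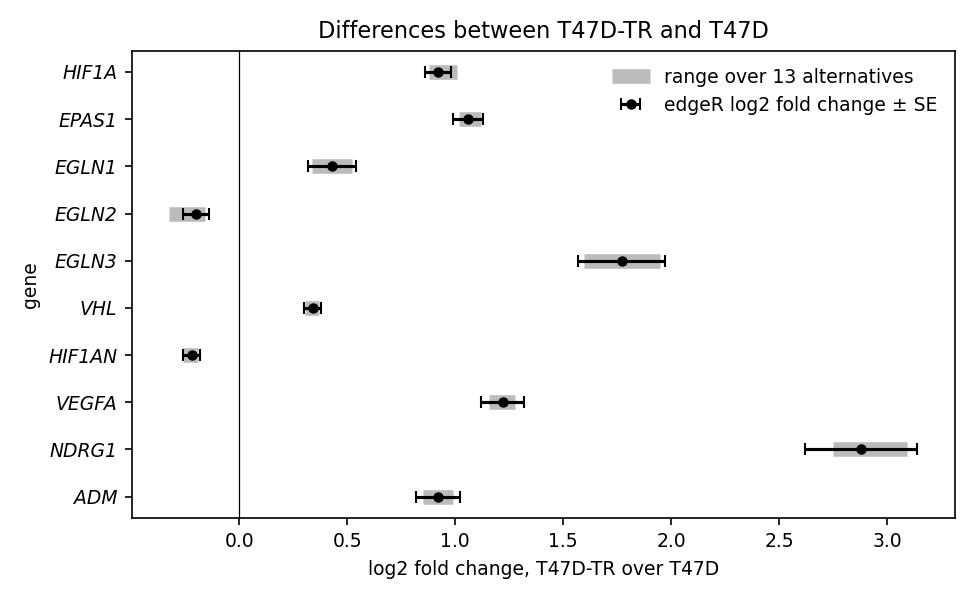
Log2 fold change of each gene, T47D-TR over T47D. Black points are edgeR estimates with the SE from the spread between libraries, and grey bars span the values in 13 alternative settings. No bar crosses 0; NDRG1 lies furthest right at 2.88 and EGLN2 and HIF1AN lie left of 0.

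Ligand and receptor genes near these targets differed as well. The co-receptor genes NRP1 and NRP2, which bind VEGF family ligands, were at 207 ± 13.8 and 84.0 ± 9.31 CPM in T47D-TR and 69.5 ± 0.95 and 46.1 ± 0.67 CPM in T47D (edgeR adjusted p = 2.3e-10 and 5.4e-07). VEGFB rose (log2 fold change 0.35 ± 0.03, edgeR adjusted p = 0.00056) and the lymphatic growth factor gene VEGFC fell, at 9.59 ± 0.73 CPM in T47D-TR and 17.2 ± 1.09 CPM in T47D. FLT1, a VEGF receptor gene, had 0, 0 and 2 counts in T47D-TR and 5, 9 and 4 in T47D, and KDR was not among the rows of the table. In all, 4 of 6 tested VEGF-related genes rose and 1 fell, and with 63.0% of all tested genes called, 32.5% higher and 30.5% lower, this count says little about so few genes. Without the filter on low counts 3 fell, of 10 tested. Of the genes for adrenomedullin receptor parts, RAMP1 had at most 3 counts in any library and CALCRL, RAMP2 and RAMP3 were not among the rows. ADM2, a paralogue of ADM, had 267, 384 and 365 counts in T47D-TR and 55, 72 and 55 in T47D (log2 fold change 2.51 ± 0.22, edgeR adjusted p = 1.1e-07). Of the other NDRG genes, NDRG3 rose by 0.34 ± 0.03 and NDRG2 fell to 4.47 ± 0.23 CPM in the T47D-TR libraries, against 8.98 ± 0.14 CPM in T47D (edgeR adjusted p = 8.5e-06). Of NDRG2, NDRG3, NDRG4 and the NDRG1 kinase gene SGK1, 2 were called higher and 1 lower, beside 32.5% and 30.5% of all tested genes. With voom 1 was higher and 2 were lower. SGK1 was called higher, but its groups overlapped, with 326, 325 and 125 counts in T47D-TR and 122, 135 and 146 in T47D.

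Of 58 tested genes in a wider list of known hypoxia-induced genes, 45 rose (77.6%) and 5 fell (8.62%), while 8 did not pass the test. Of all tested genes 32.5% were called higher and 30.5% lower. The median log2 fold change of the list was 0.84, against 0.00 over all tested genes. Of the 58, 25 were called at least 2-fold higher, a call made for 10.1% of all tested genes. The list was chosen with earlier results of these data known, so these shares are a description and not a test. CA9, a carbonic anhydrase gene, had 851, 1041 and 506 counts in T47D-TR and 7, 6 and 9 in T47D (log2 fold change 6.75 ± 0.28), and the glucose transporter gene SLC2A3 had 4059, 4890 and 2248 against 121, 134 and 128 (4.87 ± 0.27). MIR210HG, the host transcript of the hypoxia-induced miR-210, had 47, 30 and 36 counts in T47D-TR and 1, 2 and 5 in T47D (log2 fold change 3.79 ± 0.41, edgeR adjusted p = 7.9e-06). Members that fell included the haem oxygenase gene HMOX1, at 21.1 ± 8.97 CPM in T47D-TR and 66.5 ± 1.10 CPM in T47D, the glycolysis regulator gene PFKFB3 (log2 fold change -0.76 ± 0.09) and the ephrin gene EFNA1 (-0.52 ± 0.06). The glycolytic genes ALDOA, GPI, TPI1 and PGAM1 and the demethylase gene KDM3A were not called, with log2 fold changes between -0.03 and 0.04. Many of these genes respond to other signals too, so the count does not measure HIF activity. Without T47D-TR replicate 3, 46 of 59 tested members rose and 5 fell.

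**Figure D4:**
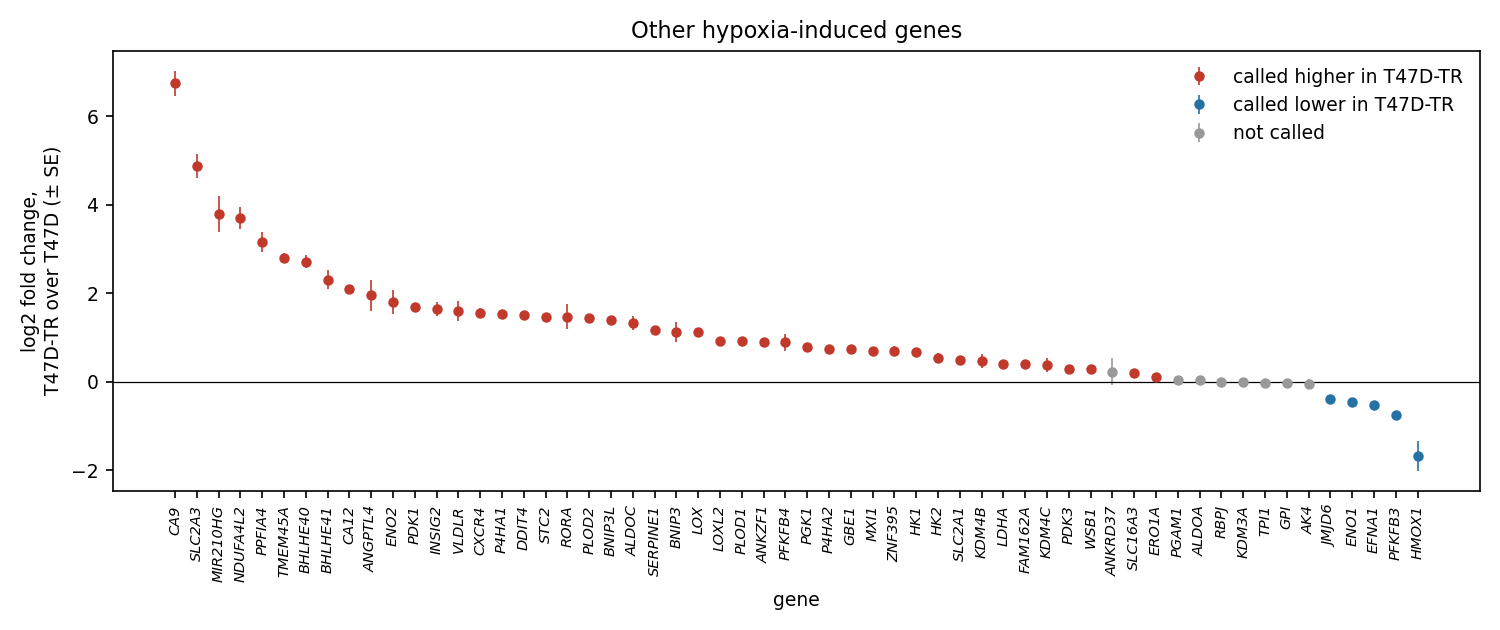
Log2 fold change, T47D-TR over T47D, of 58 other hypoxia-induced genes, ordered by size, with error bars for the SE. The list was chosen with earlier results of these data known. Red points were called higher (45), blue lower (5) and grey were not called (8); CA9 stands highest at 6.75 and HMOX1 lowest at -1.67.

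Within T47D-TR these genes were uneven, and replicate 3 was the low library. It gave the lowest CPM of its group for 9 of the 10 genes, all except HIF1AN, whereas it did so for 38.0% of all tested genes. Relative to the mean of the other T47D-TR libraries it held 59.3% for NDRG1 and 65.4% for EGLN3, but 94.5% for VHL and 100% for HIF1AN. In the wider hypoxia list it was lowest for 42 of 58 genes, with a median of 89.1% of the other libraries. Its part in the group differences can be read from the values without it: the log2 fold change was then 3.09 for NDRG1, 1.95 for EGLN3, 1.28 for VEGFA, 1.12 for EPAS1 and 0.97 for HIF1A, each larger than with all libraries. The coefficient of variation was larger in T47D-TR than in T47D for 8 of the 10 genes, and for NDRG1 it was 27.3% and 6.54%. The share of all tested genes with this order was not computed. Pairs of T47D-TR libraries also differed more, with a mean chi-square of 2.79 to 9.58 against 1.83 to 2.24 in T47D. This mean was taken over genes above a minimum count in the pair. Whether the count of 8 sets these genes apart was not tested.

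The genes whose log2 CPM over the 6 libraries was most like that of HIF1A were SLC2A3, TSPAN14 and TRIM2, and those most like EPAS1 were RHOF, DPP4 and N4BP3. As a description, the likeness was Pearson's r of log2 CPM. With 2 groups it mostly restates the group difference, and 594 and 583 genes passed 0.99 for HIF1A and EPAS1.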

How the data were processed

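Poly(A) RNA of 3 T47D-TR and 3 T47D libraries was prepared with a directional kit from 1 µg of total RNA, per the labels' protocols. The submitters' processing notes name HISAT2 2.1.0, DESeq and the build GRCh38. No source used here states the counting tool, strand setting or annotation. The authors deposited whole-number counts per gene and library, under a name that says FPKM. The authors also deposited a normalized signal (a mean per group), its ratio as a fold change, the log2 of that ratio, and a p-value with its false discovery rate. Those columns were not used for any printed result.

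Columns were matched to samples by title. Counts were scaled by TMM, filtered by filterByExpr (minimum count 10, minimum total 15) and compared with edgeR 4.0.16 (glmQLFit, glmQLFTest, R 4.3.3), with Benjamini-Hochberg adjustment over all 15961 tested genes, a threshold of 0.05, 2-sided. CPM are given as mean ± SD of 3 libraries. The summed CPM of cell type markers were scaled to library size alone, without TMM. The SE of a log2 fold change comes from the spread of log2 CPM (prior count 2). Ratios used SciPy 1.17.1. Fits were tested on simulated data. The genes and lists were chosen with earlier results of these data known, and list alternatives were added after seeing the data. All 10 genes were named. From each list ARNT and up to 3 called genes in each direction with groups that did not overlap were named, with VEGF, adrenomedullin and NDRG genes as detected; CITED2, CUL2, ELOB, ELOC and the uncalled glycolytic genes and KDM3A were chosen after their values were seen. Markers were named as a check. Alternatives were RLE scaling, library size alone, limma-voom with quantile normalization (limma 3.58.1), DESeq2 1.42.0, other filters, a replicate block and leaving out each library. Gene positions are from GENCODE release 29 (GRCh38). Planned protein comparisons were not made. Counting precision is limited by 17199315 to 19867230 counts per library.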

Additional observations from a re-analysis of the deposited data

How the results depend on the processing

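All 8 calls of higher genes and that of HIF1AN held in 13 alternatives: RLE scaling, library size alone, voom with quantile normalization, DESeq2, 2 other filters, a replicate block and the loss of each library. EGLN2 kept its direction (log2 fold change -0.32 to -0.16) but lost its call in 10 of them, leaving 1 gene lower with DESeq2, with no filter, at a mean CPM of at least 5, with the replicate block, and without any 1 library (1 in each case), where its adjusted p was 0.051 to 0.149. With the replicate block 9954 genes were called and EGLN2 had an adjusted p of 0.0528. Same-numbered libraries did not deviate together (Pearson's r of deviations across genes -0.00512, -0.0208 and -0.0138), so the numbers were not treated as pairs. All genes called numbered 9047 to 10665 when a library was left out. With voom, log2 fold changes shifted by a median of -0.11 and 43.0% of calls were higher, against 51.6%. The differences in log2 ratio kept their sign with a prior count of 0.5 and without each library, where they ranged from 0.12 to 0.18 for EPAS1 to HIF1A, 1.23 to 1.41 for EGLN3 to EGLN1, 1.84 to 2.09 for EGLN3 to EGLN2 and 0.55 to 0.68 for EGLN1 to EGLN2. In the gene lists, risers among HIF turnover genes were 5 with voom, 5 with DESeq2 and 4 to 8 without 1 library, risers among HIF partners were 4 with DESeq2, NDRG-related genes had 1 riser and 2 fallers with voom, and 3 VEGF-related genes fell with no filter. The cause of these differences was not tested. With no filter 10 VEGF-related genes were tested, against 6 with it. Leaving out a library leaves 2 in its group. Genes at few counts, such as ARNT2 and MIR210HG in T47D, are limited by depth.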
